A study of Mus musculus with 2 samples.

Results

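The genes described here encode the semaphorins, ephrins, slits and netrins and their receptors, the 4 large families of guidance cues. Membership was set by gene symbol, with earlier results of these data known, and 67 of the 30491 genes in the deposited table match, with 292 of its 88702 transcripts. The cells were muscle-resident fibro/adipogenic progenitors (FAPs), stromal cells that can give rise to fibroblasts and adipocytes. They were sorted fresh from muscle of WT mice as primary cells and kept in DMEM with 20% FBS and penicillin-streptomycin. One culture condition had 1 µM mouse recombinant Musclin, a secreted peptide that muscle makes, and the other had the same amount of vehicle, both for 24 h. Total RNA was taken with TRIzol and sequenced as 1 library under Musclin and 1 under vehicle, with the number of animals and what the vehicle was not given in the sources used here. This comparison asks which guidance genes differ early after Musclin is added to these cells. With 1 library per group no difference has a replicate check, no test was run, and it is not given whether a library stands for 1 culture or for several pooled ones. The table names its reference column BSA, and that column was read as vehicle by elimination, so each direction below depends on that reading.

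Guidance cues were first known from growing axons and are used by many other cells, including those of vessels and connective tissue. Class 3 semaphorins are secreted and bind neuropilins, which pass the signal on through plexins, while most other semaphorins sit in the membrane and bind plexins directly. Ephrins are also held at the membrane and bind Eph receptor tyrosine kinases on a touching cell, with signals in both directions. Slits are secreted ligands of Robo receptors, and netrins are laminin-like ligands of Dcc, Neo1 and the Unc5 receptors.

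Gene levels are sums of the FPKM of a gene's transcripts, where FPKM counts sequenced fragments per length of transcript and per depth of library. A log2 ratio is of Musclin over vehicle on FPKM plus 1, and it understates how far apart low genes are. A gene was kept at 1 FPKM or more in either library and called higher or lower where that ratio was 2-fold or more. For members with at least 5 FPKM in a library, the ratio of aligned bases is also given, with an exact 95% Clopper-Pearson interval that covers counting error only. The libraries held 6.69 Gb (gigabases) of aligned sequence under Musclin and 6.76 Gb under vehicle. In fragments of 298 bases that is 22455503 under Musclin and 22675688 under vehicle. Of 10 FAP marker genes 9 were at the floor, with 1 of them 2-fold higher, against 1.71% of all genes at the floor, and 1 2-fold lower, against 1.52%, and the list summed to 1508 FPKM under Musclin and 1569 FPKM under vehicle. The marker 2-fold higher was Dcn, the decorin gene, at 181 FPKM under Musclin and 64.8 FPKM under vehicle. The marker 2-fold lower was Osr1, a transcription factor gene, at 15.1 FPKM under Musclin and 34.8 FPKM under vehicle. On aligned bases Osr1 lay inside 2-fold, with a ratio of 0.624 (95% interval 0.565 to 0.688), from 649 fragments under Musclin and 1051 under vehicle. Just inside 2-fold on FPKM plus 1 lay Cd34, at 29.7 FPKM under Musclin and 14.5 FPKM under vehicle. Its log2 ratio was 0.989, and its aligned-base ratio was 2.08 (1.91 to 2.26). The collagen gene Col3a1 was at 233 FPKM under Musclin and 392 FPKM under vehicle. The FAP surface marker Pdgfra was at 87.2 FPKM under Musclin and 79.9 FPKM under vehicle, and the proteoglycan gene Lum was under the floor in both libraries. The markers thus differed in both directions, and their part in the results was not tested.

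The cells expressed all 4 families, and few members were far apart between the libraries. Of the 67 guidance genes 43 were at the floor, 22 of 35 ligand genes and 21 of 32 receptor genes. At 2-fold or more, 1 of the 43, Sema3c, was higher under Musclin (2.33%), against 1.71% of all 12884 genes at the floor. None was 2-fold lower, against 1.52% of all genes. The median log2 ratio was 0.09 over the 43 members, which ran from -0.66 to 1.30, and -0.02 over all genes, whose 5th to 95th percentile ran from -0.59 to 0.62. The aligned-base interval lay above 1 for 19 of the 43 members (44.2%) and for 26.6% of all genes. It lay below 1 for 10 members (23.3%) and for 31% of all genes, and it held 1 for the other 14.

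**Figure D1:**
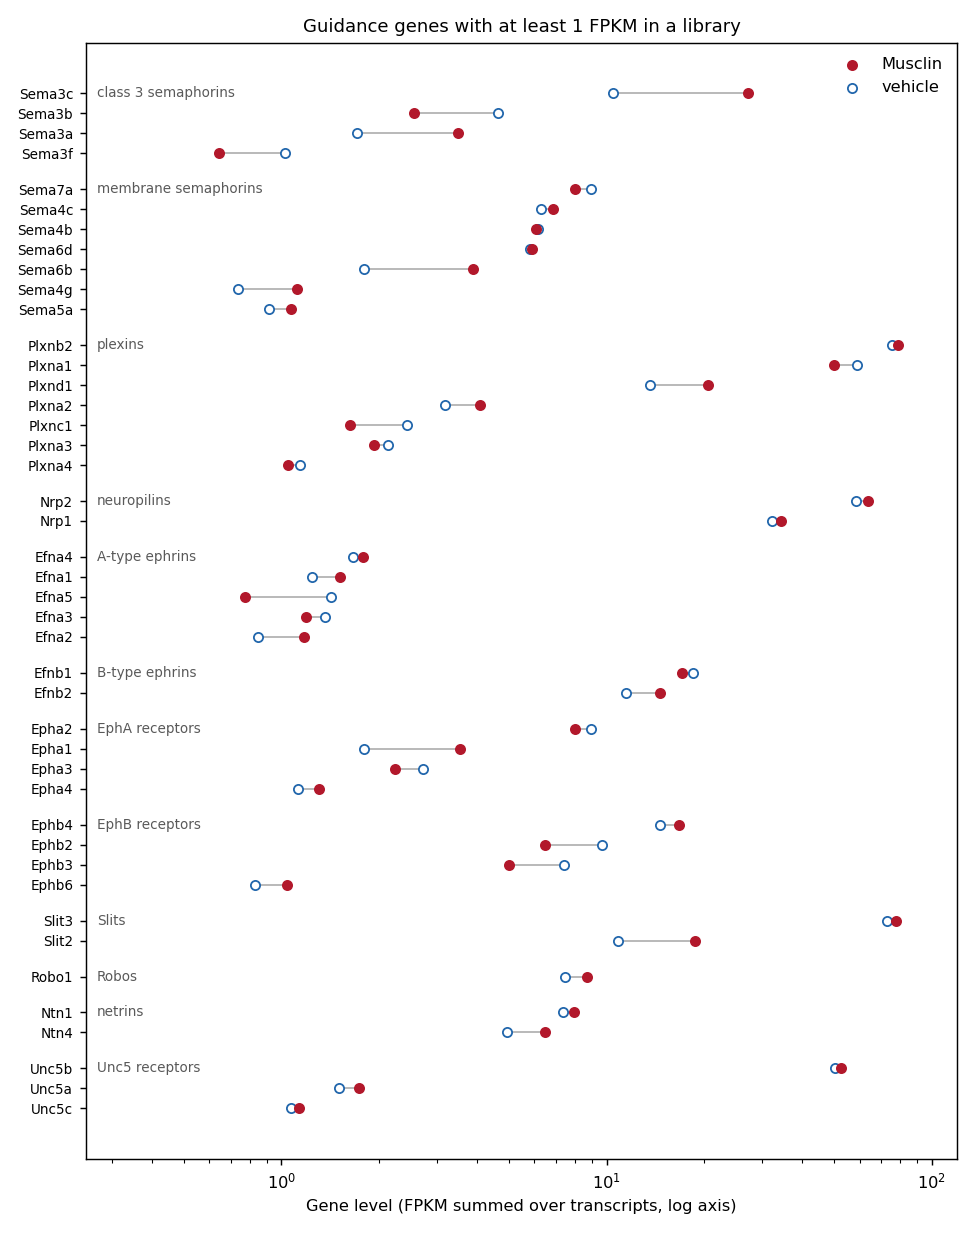
Level of each guidance gene at the floor, as FPKM summed over transcripts on a log axis, with 1 filled point for the Musclin library and 1 open point for the vehicle library. Genes are grouped by role, and the widest gap is that of Sema3c, at 27.1 FPKM under Musclin and 10.5 FPKM under vehicle.

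Summed over ligand genes the level was 219.7 FPKM under Musclin and 184.8 FPKM under vehicle, and over receptor genes 366 FPKM under Musclin and 356 FPKM under vehicle. Both sums rested on a few genes. The members at 50 FPKM or more in a library were the receptor genes Plxnb2, Nrp2, Plxna1 and Unc5b and the ligand gene Slit3. Another 7 members lay between 10 and 50 FPKM, 10 between 5 and 10 FPKM and 21 between 1 and 5 FPKM. The remaining 24 were under 1 FPKM in both libraries, and 11 of these were under 0.1 FPKM in both. In RNA from many cells, fewer cells of a type and less RNA per cell cannot be told apart.

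Among class 3 semaphorins, Sema3c was 2-fold higher under Musclin, and Sema3a had a log2 ratio above 0 that did not reach 2-fold on FPKM plus 1. Sema3b and Sema3f had log2 ratios below 0. Sema3c encodes a secreted ligand of neuropilins and is known as a gene of muscle FAPs (ENSMUSG00000028780, chr5:17574281-17730268, plus strand, GRCm38). It was at 27.1 FPKM under Musclin and 10.5 FPKM under vehicle, a log2 ratio of 1.30. Its aligned-base ratio was 2.59 (95% interval 2.43 to 2.77), from 3346 fragments under Musclin and 1303 under vehicle. The lower bound is past 2-fold, so the gap is wide against counting error, and the spread between cultures is unknown. Nearly all of the level came from ENSMUST00000030568, at 27.1 FPKM under Musclin and 10.4 FPKM under vehicle, which the authors' deposited table marks as significant at a fold of 2.59.

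Sema3a encodes a repellent that acts through neuropilin-1 (ENSMUSG00000028883, chr5:13125414-13602565, plus strand). It was at 3.50 FPKM under Musclin and 1.70 FPKM under vehicle, a log2 ratio of 0.74, from 449 fragments under Musclin and 187 under vehicle. Its aligned-base ratio was 2.42 (2.04 to 2.89) and its plain FPKM ratio 2.06, so the pseudocount of 1 keeps its log2 ratio under 2-fold. Its leading transcript ENSMUST00000030714, at 3.29 FPKM under Musclin and 1.20 FPKM under vehicle, is marked in the authors' deposited table at a fold of 2.75. Sema3b, a secreted semaphorin gene on chromosome 9, went the other way, at 2.56 FPKM under Musclin and 4.63 FPKM under vehicle, a log2 ratio of -0.66. Sema3f, also on chromosome 9 and a ligand of neuropilin-2, was at 0.641 FPKM under Musclin and 1.03 FPKM under vehicle. Sema3c and Sema3a share chromosome 5 with Sema3d and Sema3e, which like Sema3g were under 1 FPKM in both libraries. Over the 7 class 3 genes the summed level was 34.9 FPKM under Musclin and 18.7 FPKM under vehicle, and Sema3c made up most of it.

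The listed transcripts of Sema3b did not share a direction. ENSMUST00000102530 was listed at 0.0815 FPKM under Musclin and 2.64 FPKM under vehicle, whereas ENSMUST00000102532 was at 2.01 FPKM under Musclin and 1.44 FPKM under vehicle. Both have the same coding length of 2247 bases. The authors' deposited table marks neither of them as significant, and the aligned-base ratio of the gene was 0.509 (0.422 to 0.613). With the leading transcript alone in place of the sum the log2 ratio of Sema3b was 0.30, and in the other alternatives that gave a value it ran from -0.83 to -0.35.

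Of 13 membrane semaphorin genes 7 were at the floor, and Sema6b, a ligand of A-type plexins, stood apart from the others. It was at 3.87 FPKM under Musclin and 1.80 FPKM under vehicle, a log2 ratio of 0.80, from 278 fragments under Musclin and 131 under vehicle. Its main transcript ENSMUST00000167545, at 3.62 FPKM under Musclin and 1.64 FPKM under vehicle, is marked in the authors' deposited table at a fold of 2.21, and with a pseudocount of 0.1 Sema6b also counted as 2-fold higher. Sema7a, a GPI-anchored semaphorin that binds Plxnc1 and integrins, was at 7.97 FPKM under Musclin and 8.97 FPKM under vehicle, with an aligned-base ratio of 0.888 (0.793 to 0.993). Sema4c and Sema4b, both ligands of B-type plexins, were at 6.82 FPKM under Musclin and 6.27 FPKM under vehicle and at 6.05 FPKM under Musclin and 6.17 FPKM under vehicle, and both intervals held 1. Sema4g and Sema5a were near the floor, at 1.11 FPKM under Musclin and 0.735 FPKM under vehicle and at 1.07 FPKM under Musclin and 0.916 FPKM under vehicle. Sema4a, Sema4d, Sema4f, Sema5b, Sema6a and Sema6c were under 1 FPKM in both libraries.

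Sema6d, a ligand of Plxna1, had totals whose ratio interval held 1 but a different listed mix of transcripts. The gene was at 5.91 FPKM under Musclin and 5.80 FPKM under vehicle, with an aligned-base ratio of 1.08 (0.973 to 1.21). Among the stretches by which its transcripts differ are a 57-base exon (chr2:124660705-124660761, plus strand) and 12 bases at the end of a later exon (chr2:124662360-124662371). Transcripts with the 12 bases summed to 5.12 FPKM under Musclin and 3.86 FPKM under vehicle, which is 92.2% of the gene's coding level under Musclin and 70.4% under vehicle. Those without them include ENSMUST00000076335, at 0 FPKM under Musclin and 0.754 FPKM under vehicle, which was named after its values were seen. It has 2994 coding bases against 3219 in ENSMUST00000103239, so it lacks more than these stretches, and the shares do not measure the 12 bases alone. ENSMUST00000103239 has both stretches and was at 1.91 FPKM under Musclin and 1.09 FPKM under vehicle. ENSMUST00000103240 has the 57-base exon without the 12 bases and was at 0.234 FPKM under Musclin and 0.850 FPKM under vehicle. The authors' deposited table marks it as significant at 3.63-fold lower, and it is under 1 FPKM and was named after its values were seen. The 12 bases are shown in capitals, between bases of the exons around them, because they separate those transcripts.
Sema6d 12-base addition: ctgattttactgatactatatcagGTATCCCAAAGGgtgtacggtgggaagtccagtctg

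Neuropilin genes were abundant and lay well inside 2-fold. Nrp1, a neuropilin whose ligands include Sema3a, was at 34.4 FPKM under Musclin and 32.4 FPKM under vehicle, with an aligned-base ratio of 1.06 (1.01 to 1.12). Nrp2, a neuropilin whose ligands include Sema3f and Sema3c, was at 63.8 FPKM under Musclin and 58.6 FPKM under vehicle, with a ratio of 1.09 (1.06 to 1.12). Both are also co-receptors of VEGF.

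Below that small difference in the Nrp2 total, the sums of its transcripts with each of the different ends had ratios on either side of 1. Neuropilin-2 is known in an a and a b form, which share the outer part and differ in the membrane and inner part. The coding end of the b form lies at chr1:62795709-62795986 (plus strand), and that of the a form at chr1:62815333-62815634. The first 90 bases of each are printed because they tell the forms apart, with all bases in capitals.
Nrp2 b end: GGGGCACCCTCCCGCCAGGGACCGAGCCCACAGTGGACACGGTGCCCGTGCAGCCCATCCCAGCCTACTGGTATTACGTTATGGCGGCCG
Nrp2 a end: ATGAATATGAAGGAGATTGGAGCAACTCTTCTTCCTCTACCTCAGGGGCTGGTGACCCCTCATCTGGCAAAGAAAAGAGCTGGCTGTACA
The 2 transcripts with the b end summed to 31.3 FPKM under Musclin and 23.6 FPKM under vehicle. The 4 with the a end summed to 32.5 FPKM under Musclin and 34.8 FPKM under vehicle. The b end thus made up 49.0% of the coding level under Musclin and 40.4% under vehicle. Its main transcript ENSMUST00000114155 was at 30.2 FPKM under Musclin and 22.9 FPKM under vehicle, and ENSMUST00000063594, the leading transcript with the a end, at 13.8 FPKM under Musclin and 15.5 FPKM under vehicle. Not all transcripts with the a end had a ratio below 1, since ENSMUST00000114157 was at 6.27 FPKM under Musclin and 5.28 FPKM under vehicle, with an aligned-base ratio of 1.19 (1.08 to 1.31). The authors' deposited table marks neither of the leading transcripts as significant. A 15-base addition of the a and b forms (chr1:62786302-62786316) was carried by 18.0% of the coding level under Musclin and 18.1% under vehicle.

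Of 9 plexin genes 7 were at the floor, with a median log2 ratio of -0.07 and ratios on both sides of 0. Plxnd1, a receptor of Sema3e and, with neuropilins, of Sema3c (ENSMUSG00000030123, chr6:115954811-115995005, minus strand), had the highest ratio. It was at 20.5 FPKM under Musclin and 13.6 FPKM under vehicle, a log2 ratio of 0.56, with an aligned-base ratio of 1.49 (1.41 to 1.58). Its leading transcript is not marked in the authors' deposited table, where the fold is 1.49. Every guidance transcript marked there is 2-fold or more apart, so a missing mark at a smaller fold does not show a lack of difference. Plxnd1 is also known in endothelium, whose 10 marker genes summed to 4.71 FPKM under Musclin and 7.96 FPKM under vehicle, with 3 at the floor. These were Tek (1.58 FPKM under Musclin and 3.45 FPKM under vehicle), Egfl7 (1.28 FPKM under Musclin and 1.85 FPKM under vehicle) and Cdh5 (0.891 FPKM under Musclin and 1.15 FPKM under vehicle). All 3 had log2 ratios below 0, and Cldn5 and Tie1 were listed at 0 in both libraries. The part of endothelial cells in the Plxnd1 level was not tested.

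Plxnb2, a receptor of class 4 semaphorins and the most abundant guidance gene, was at 78.7 FPKM under Musclin and 75.6 FPKM under vehicle, with an aligned-base ratio of 1.04 (1.02 to 1.07). Plxna1, a partner of neuropilins and a receptor of class 6 semaphorins, was at 50.2 FPKM under Musclin and 58.8 FPKM under vehicle, with a ratio of 0.853 (0.831 to 0.876). Depth was enough to place both intervals off 1 at differences far under 2-fold. Plxna2, another neuropilin partner, was at 4.07 FPKM under Musclin and 3.19 FPKM under vehicle, and Plxnc1, the Sema7a receptor gene, at 1.63 FPKM under Musclin and 2.42 FPKM under vehicle. Plxna3 (1.93 FPKM under Musclin and 2.12 FPKM under vehicle) and Plxna4 (1.04 FPKM under Musclin and 1.14 FPKM under vehicle) were both close to the floor, and Plxnb1 and Plxnb3 were under it.

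**Figure D2:**
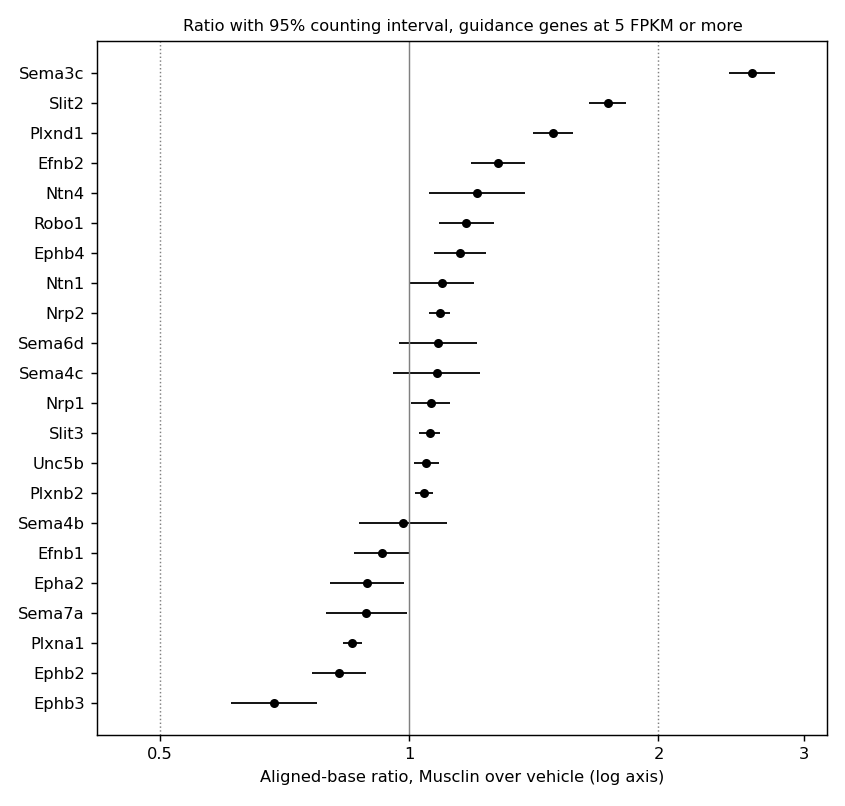
Aligned-base ratio of Musclin over vehicle on a log axis for the 22 guidance genes with at least 5 FPKM in a library, with exact 95% intervals for counting error and dotted lines at 2-fold. Sema3c alone has its whole interval past 2-fold, and the bottom of the order is Ephb3 at 0.686.

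Ephrin genes at the floor all lay within 2-fold. Efnb2, a B-type ephrin with an inner tail that signals, was at 14.6 FPKM under Musclin and 11.5 FPKM under vehicle, a log2 ratio of 0.33, with an aligned-base ratio of 1.28 (1.19 to 1.38). Efnb1, from the X chromosome, was at 17.1 FPKM under Musclin and 18.4 FPKM under vehicle, and its interval (0.857 to 1.001) held 1. Efnb3 was under the floor. All 5 A-type ephrin genes, whose products are lipid-anchored, were at the floor but none reached 2 FPKM. Efna5 had the ratio farthest from 0 among them, at 0.775 FPKM under Musclin and 1.42 FPKM under vehicle, from 70 fragments under Musclin and 127 under vehicle. Efna1 (1.52 FPKM under Musclin and 1.24 FPKM under vehicle), Efna3 (1.19 FPKM under Musclin and 1.36 FPKM under vehicle) and Efna4 (1.78 FPKM under Musclin and 1.66 FPKM under vehicle) lie near each other on chromosome 3, and Efna2 was at 1.17 FPKM under Musclin and 0.847 FPKM under vehicle.

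None of the B-type Eph receptor genes at the floor was 2-fold apart, with log2 ratios of -0.52 for Ephb2, -0.48 for Ephb3 and 0.19 for Ephb4. Ephb3 was at 5.01 FPKM under Musclin and 7.39 FPKM under vehicle, with an aligned-base ratio of 0.686 (0.609 to 0.773). Ephb4, the receptor of Efnb2, was at 16.7 FPKM under Musclin and 14.5 FPKM under vehicle, with a ratio of 1.15 (1.07 to 1.24). Ephb2, a receptor of B-type ephrins, was at 6.45 FPKM under Musclin and 9.66 FPKM under vehicle. Ephb6, a receptor gene whose product lacks kinase activity, was at 1.04 FPKM under Musclin and 0.829 FPKM under vehicle, and Ephb1 was under the floor.

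The ratio of Ephb2 below 1 lay in 1 of its transcripts (ENSMUSG00000028664, chr4:136647539-136835988, minus strand). ENSMUST00000059287, of 4804 bases, was at 2.04 FPKM under Musclin and 6.01 FPKM under vehicle, from 220 fragments under Musclin and 655 under vehicle. The authors' deposited table marks it as significant at 2.94-fold lower. ENSMUST00000105845, of 10902 bases, was at 4.06 FPKM under Musclin and 3.44 FPKM under vehicle and is not marked there. The longer one ends 6069 bases further downstream, at chr4:136647539-136653607, and it made up 66.5% of the 2 transcripts' level under Musclin and 36.4% under vehicle. Because the transcripts differ in length, the aligned-base ratio of the gene, 0.823 (0.763 to 0.887), is nearer to 1 than its FPKM ratio of 0.668.

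The shorter transcript also carries 3 coding bases (chr4:136675531-136675533) that the longer one lacks. Both versions are printed from the minus strand because they show how small the coding difference is, with the added bases in capitals.
Ephb2 with the addition: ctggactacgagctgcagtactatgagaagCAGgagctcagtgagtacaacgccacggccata
Ephb2 without the addition: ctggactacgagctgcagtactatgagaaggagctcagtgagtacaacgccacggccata
Transcripts with the addition summed to 2.04 FPKM under Musclin and 6.03 FPKM under vehicle, and those without it to 4.34 FPKM under Musclin and 3.61 FPKM under vehicle. The share with the addition was 32.0% under Musclin and 62.6% under vehicle. How reads of the shared exons were divided between the 2 transcripts is the estimate in the deposited values, so the 3 bases and the 3′ end cannot be told apart as the source of the difference.

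**Figure D3:**
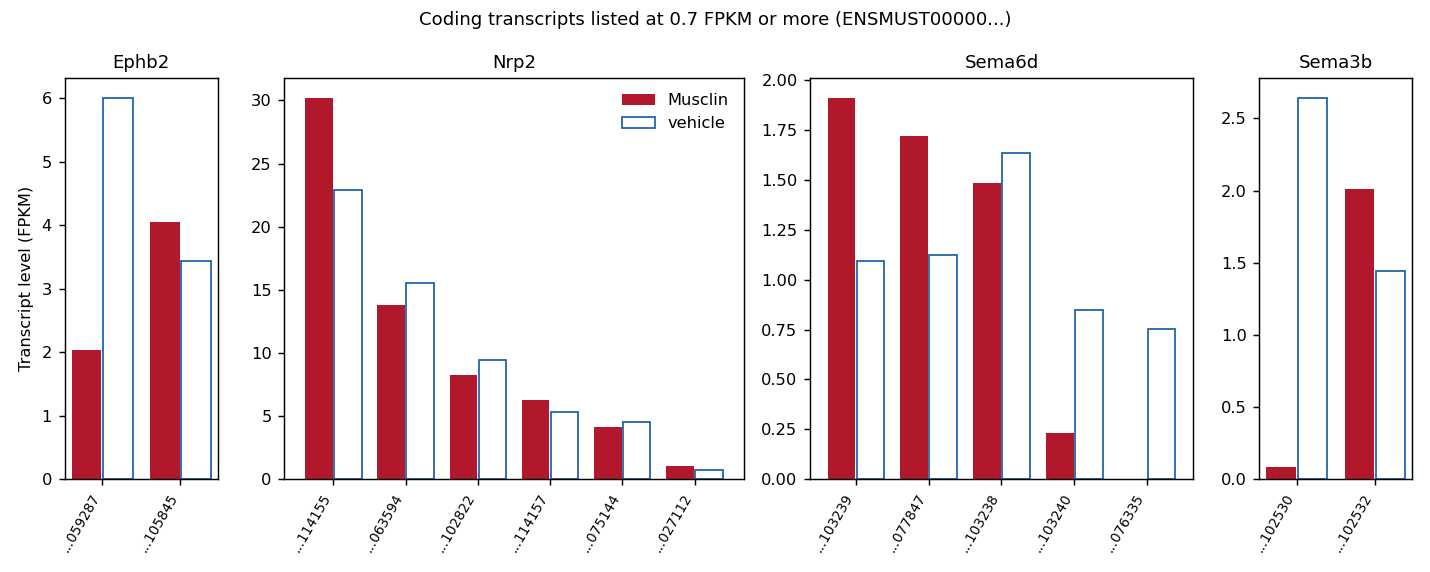
Level in FPKM of the coding transcripts with at least 0.7 FPKM in a library for Ephb2, Nrp2, Sema6d and Sema3b, with filled bars for Musclin and open bars for vehicle. Each gene has transcripts with a ratio above 1 and transcripts with a ratio below 1, such as the Ephb2 pair at 2.04 FPKM under Musclin against 6.01 FPKM under vehicle and at 4.06 FPKM under Musclin against 3.44 FPKM under vehicle.

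Among A-type Eph receptor genes 4 of 8 were at the floor. Epha2, a receptor of A-type ephrins and the most abundant of these, was at 8.01 FPKM under Musclin and 8.97 FPKM under vehicle, with an aligned-base ratio of 0.890 (0.803 to 0.987). Epha1, the founding gene of the Eph family, was at 3.54 FPKM under Musclin and 1.79 FPKM under vehicle, a log2 ratio of 0.70, from 255 fragments under Musclin and 132 under vehicle. An exon of Zyx, a gene at 173 FPKM under Musclin and 185 FPKM under vehicle, overlaps 156 bases of Epha1 on the opposite strand, and whether the counting used strand is not given, so the Epha1 level is uncertain. Epha3 was at 2.23 FPKM under Musclin and 2.73 FPKM under vehicle, and Epha4 at 1.30 FPKM under Musclin and 1.13 FPKM under vehicle. Epha5, Epha7, Epha8 and Epha10 were under 1 FPKM in both.

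Slit2 and Slit3 were expressed beside a single Robo gene at the floor, Robo1. Slit2, which encodes a secreted Robo ligand (ENSMUSG00000031558, chr5:47983138-48307733, plus strand), was at 18.7 FPKM under Musclin and 10.8 FPKM under vehicle. Its log2 ratio was 0.74 and its aligned-base ratio 1.74 (1.65 to 1.83), from 3968 fragments under Musclin and 2307 under vehicle. Its leading transcript ENSMUST00000173107 was at 17.3 FPKM under Musclin and 9.68 FPKM under vehicle and is not marked in the authors' deposited table, where its fold is 1.79 and its q-value 0.000248. Slit3, its more abundant paralog on chromosome 11, was at 77.6 FPKM under Musclin and 73.1 FPKM under vehicle, with a ratio of 1.06 (1.03 to 1.09). Robo1 was at 8.69 FPKM under Musclin and 7.47 FPKM under vehicle, with a ratio of 1.17 (1.09 to 1.26). Slit1, Robo2, Robo3 and Robo4 were under 1 FPKM in both libraries, and Robo3 and Robo4 are neighbours on chromosome 9.

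Slit2 and Plxnd1 were the members with at least 5 FPKM, an absolute log2 ratio over 0.5 and a leading transcript starting within 50 bases of the start in RefSeq. The leading transcript here is the one with the highest level summed over both libraries. Their upstream sequence is shown (RefSeq, GRCm38.p6). Sema3c and Ephb2 also met the level and ratio bounds. They are not shown, because Sema3c ENSMUST00000030568 starts 535 bases and Ephb2 ENSMUST00000059287 starts 56 bases from the RefSeq start. The windows end just before the listed transcript start, chr5:47982905-47983137 on the plus strand for Slit2 and chr6:115995006-115995255 on the minus strand for Plxnd1, and capitals mark the motifs found. Searched on both strands were the TATA box (TATAAA), the GC box (GGGCGG), AP-1 (TGANTCA), the hypoxia response core in its ACGTG form only, and kappaB.
Slit2 upstream: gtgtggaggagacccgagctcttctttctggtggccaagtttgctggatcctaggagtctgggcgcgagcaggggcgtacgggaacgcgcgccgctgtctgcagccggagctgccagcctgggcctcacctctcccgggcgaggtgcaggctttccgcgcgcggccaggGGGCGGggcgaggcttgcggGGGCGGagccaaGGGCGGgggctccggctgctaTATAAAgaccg
Plxnd1 upstream: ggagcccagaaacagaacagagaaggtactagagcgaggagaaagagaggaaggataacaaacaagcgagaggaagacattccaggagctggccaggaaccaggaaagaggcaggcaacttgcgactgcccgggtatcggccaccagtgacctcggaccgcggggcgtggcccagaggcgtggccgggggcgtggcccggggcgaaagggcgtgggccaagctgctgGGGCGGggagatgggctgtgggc
The Slit2 window of 233 bases holds 1 TATA box, which starts 28 bases before the RefSeq start and which 11.9% of 32851 promoter windows of that length hold. It also holds 3 GC boxes, a motif found in 30.3% of those windows. The Plxnd1 window of 250 bases holds 1 GC box, found in 32.7% of windows of its length, and no TATA box, found in 12.4%. Neither window holds AP-1, found in 6.41% of 233-base and 6.75% of 250-base windows, the ACGTG form of the hypoxia core (15.3% and 16.6%) or kappaB (6.75% and 7.25%). The GCGTG form, whose letters occur in the Plxnd1 window, was not searched. A match is a description of the letters, and its absence says nothing of the factor.

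Netrin and Unc5 receptor genes lay well inside 2-fold. Ntn1, the classical netrin, was at 7.92 FPKM under Musclin and 7.34 FPKM under vehicle, with an aligned-base ratio of 1.10 (1.002 to 1.20). Ntn4, a netrin of basement membranes, was at 6.48 FPKM under Musclin and 4.92 FPKM under vehicle, with a ratio of 1.21 (1.06 to 1.38). Unc5b, the most abundant netrin receptor gene here, was at 52.7 FPKM under Musclin and 50.4 FPKM under vehicle, with a ratio of 1.05 (1.01 to 1.09). Unc5a (1.73 FPKM under Musclin and 1.50 FPKM under vehicle) and Unc5c (1.13 FPKM under Musclin and 1.07 FPKM under vehicle) were near the floor. Ntn3 and Unc5d were under it, and Ntn5 was listed at 0 in both libraries.

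**Figure D4:**
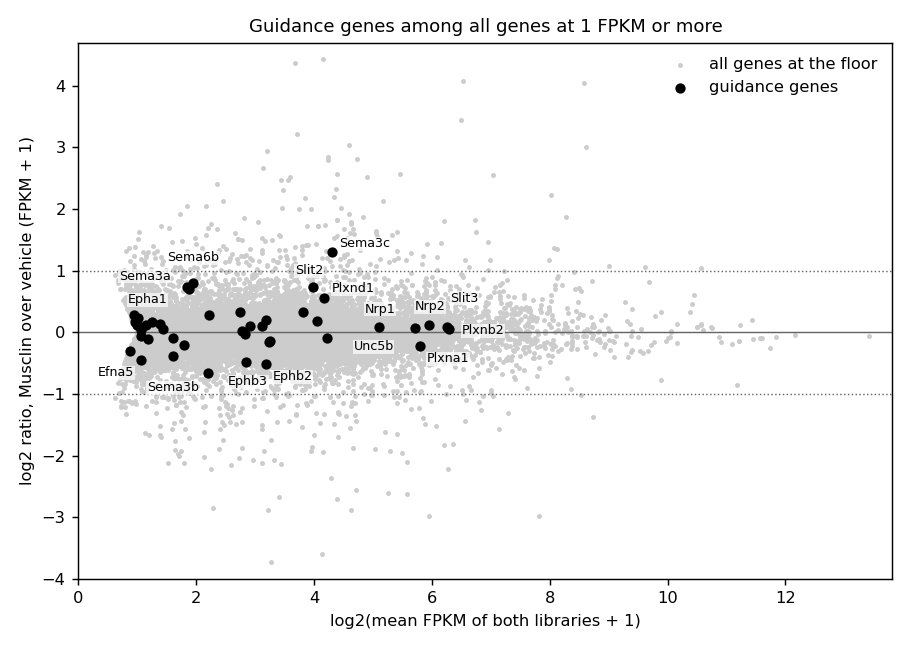
Log2 ratio of Musclin over vehicle on FPKM plus 1 against the log2 mean level, with grey points for all 12884 genes at the floor, black points for the 43 guidance genes and dotted lines at 2-fold. The guidance genes lie inside the grey cloud, and Sema3c, at 1.30, is the black point beyond a 2-fold line.

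Of the 292 guidance transcripts 5 (1.71%) are marked in the authors' deposited table as significant and higher under Musclin, against 1.69% of all transcripts. Another 3 (1.03%) are marked as lower, against 1.72% of all transcripts. Besides those of Sema3c, Sema3a, Sema6b, Ephb2 and Sema6d, the marked transcripts in the authors' deposited table belong to Sema6a, Plxnb1 and Sema4d. These 3 were under 1 FPKM and were named after their values were seen. Sema6a ENSMUST00000076043 was at 0.637 FPKM under Musclin and 0.276 FPKM under vehicle. Plxnb1 ENSMUST00000072093 was at 0.360 FPKM under Musclin and 0.171 FPKM under vehicle, and Sema4d ENSMUST00000021900 at 0.221 FPKM under Musclin and 0.447 FPKM under vehicle.

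Most genes that act with these receptors also lay within 2-fold. Of 61 genes in 4 lists 50 were at the floor, with a median log2 ratio of 0.06, none 2-fold higher, against 1.71% of all genes at the floor, and 1 2-fold lower, against 1.52%, so the counts of called genes are near those over all genes. The 1 gene was Fyn, which encodes a Src-family kinase that plexin and Eph receptors use. It was at 18.1 FPKM under Musclin and 37.5 FPKM under vehicle, a log2 ratio of -1.01 at the edge of the 2-fold bound, with an aligned-base ratio of 0.480 (0.451 to 0.512). Under upper-quartile and under median-of-ratios scaling it lay inside 2-fold, leaving 0 genes of the lists lower. The semaphorin co-receptor and transducer list, which holds Fyn, had 18 of 23 genes at the floor and a median of 0.06. In it Rnd1, whose product binds plexins, was at 17.5 FPKM under Musclin and 11.6 FPKM under vehicle, Mical2, an actin-oxidising enzyme gene, at 61.6 FPKM under Musclin and 45.3 FPKM under vehicle, and Arhgef11, whose product binds B-type plexins, at 13.7 FPKM under Musclin and 18.4 FPKM under vehicle.

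The 14 Slit and Robo transducer genes were all at the floor, with a median of -0.01 and members on both sides. Abl1, a kinase gene downstream of Robo receptors, was at 51.5 FPKM under Musclin and 30.3 FPKM under vehicle, a log2 ratio of 0.75. The srGAP genes, whose products bind Robo1, differed in direction. Srgap3 was at 13.9 FPKM under Musclin and 9.07 FPKM under vehicle, and Srgap1 at 4.30 FPKM under Musclin and 7.88 FPKM under vehicle. Ext1, which makes the heparan sulfate that Slits need, was at 42.7 FPKM under Musclin and 31.9 FPKM under vehicle.

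Of the Eph and ephrin transducers 11 of 13 were at the floor, with a median of 0.18. Tiam1, a Rac exchange factor gene, had the highest log2 ratio on FPKM plus 1, 0.71, at 13.2 FPKM under Musclin and 7.73 FPKM under vehicle. Inppl1, a lipid phosphatase gene, was at 42.7 FPKM under Musclin and 32.1 FPKM under vehicle, Nck2, an adaptor gene, at 4.31 FPKM under Musclin and 5.33 FPKM under vehicle, and Itsn1, a Cdc42 exchange factor gene, at 30.5 FPKM under Musclin and 35.2 FPKM under vehicle.

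Of the netrin and RGM partners 7 of 11 were at the floor, with a median of -0.11. Neo1, the neogenin gene and a netrin receptor, was at 32.2 FPKM under Musclin and 39.3 FPKM under vehicle, whereas Dcc was under 0.1 FPKM in both. Flrt2, whose product binds Unc5 receptors, was at 13.7 FPKM under Musclin and 10.3 FPKM under vehicle, and Rgmb, a neogenin ligand gene, at 4.67 FPKM under Musclin and 5.14 FPKM under vehicle.

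**Figure D5:**
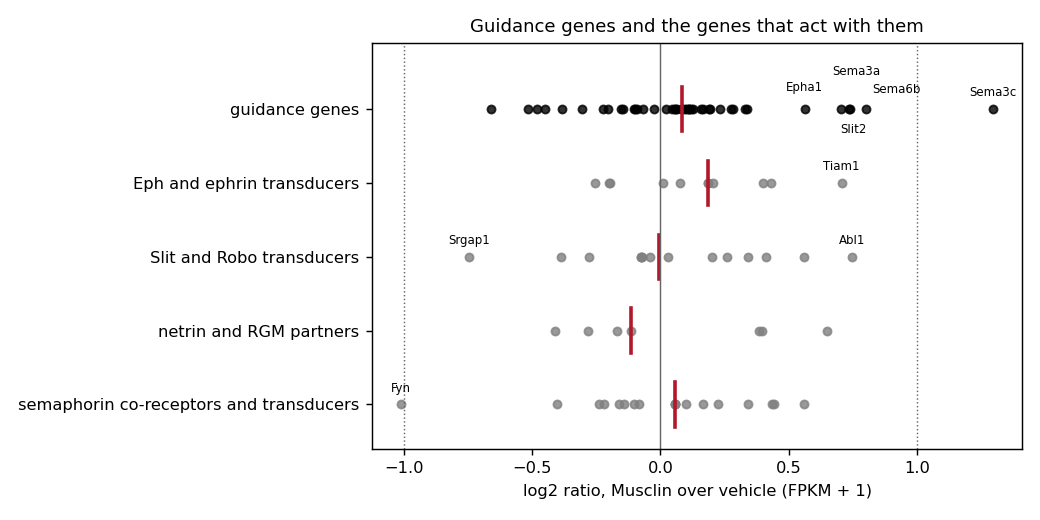
Log2 ratio of Musclin over vehicle on FPKM plus 1 for each gene at the floor, with guidance genes in black, 4 lists of genes that act with them in grey, a red bar at each median and dotted lines at 2-fold. Sema3c at 1.30 and Fyn at -1.01 are the points beyond a line.

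Markers of other cell types were under 5 FPKM in both libraries apart from Acta2, the smooth muscle actin gene, Cspg4 and Lyz2, and their part in the results was not tested. Leukocyte markers summed to 13.9 FPKM under Musclin and 18.6 FPKM under vehicle over 7 genes, of which 3 were at the floor and differed in direction. Lyz2, the lysozyme gene, was at 8.46 FPKM under Musclin and 14.1 FPKM under vehicle. Csf1r went the other way, at 1.61 FPKM under Musclin and 0.532 FPKM under vehicle, and Cd68 was at 3.03 FPKM under Musclin and 2.86 FPKM under vehicle. Mural cell markers summed to 609 FPKM under Musclin and 702 FPKM under vehicle over 8 genes, of which 5 were at the floor, and Acta2 made up 586 FPKM under Musclin and 672 FPKM under vehicle of that. The mural marker Cspg4, which encodes the NG2 proteoglycan, was at 13.97 FPKM under Musclin and 21.55 FPKM under vehicle, while Kcnj8 was under 0.1 FPKM. Myh11 went the other way, at 3.75 FPKM under Musclin and 1.87 FPKM under vehicle, and the other 4 mural markers at the floor had log2 ratios below 0. Schwann and glial markers summed to 3.66 FPKM under Musclin and 3.80 FPKM under vehicle over 6 genes, with 2 at the floor and Sox10 under 0.1 FPKM. Myogenic markers summed to 0.886 FPKM under Musclin and 1.38 FPKM under vehicle over 5 genes, with 1 at the floor and Myod1 and Myog under 0.1 FPKM.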

How the data were processed

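RNA of 2 samples was measured, 1 with Musclin and 1 with vehicle. The authors deposited 1 table of Ensembl transcripts with an FPKM value per sample, per the file headers. The same deposited table gives a fold change and its log2, a p-value, a q-value and a significance mark per transcript, with the authors' test not given in the sources used here. Per the submitters' processing notes, the tools included StringTie, edgeR and DESeq2, whose roles and versions they do not say. Not given in the sources used here are aligner and genome build. All 292 guidance transcripts have the same span in the GENCODE vM21 annotation, so positions are given as GRCm38.

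FPKM was summed per gene, with a floor of 1 FPKM and a pseudocount of 1. Base totals were read from the steps of low FPKM times length in single-exon genes, where 74.5% of 3756 values with Musclin and 74.5% of 3687 with vehicle were whole within 0.1. The commonest totals were 149 and 298 bases, and 298 were taken as 1 fragment. The table's transcripts hold 97.1% of the bases with Musclin and 97.0% with vehicle. Intervals are exact Clopper-Pearson at 95%. The steps were tested on simulated data.

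The guidance genes, the lists and the rule for naming were chosen with earlier results of these data known. The rule names any guidance gene with at least 1 FPKM in a library, with a ratio interval at 5 FPKM or more, leading transcripts, transcripts the authors marked at 1 FPKM or more, and up to 4 genes per list with the farthest log2 ratio at 5 FPKM or more. Sema3a and Sema3b, under 5 FPKM in both libraries, and the markers Osr1 and Cd34 are given an interval outside this rule. Marker genes are given for their lists. Results of 1 further list are not reported here. Alternatives were other pseudocounts, floors, scalings and transcript choices. Python 3.11.15, pandas 2.3.3, numpy 2.4.6, scipy 1.17.1 and matplotlib 3.10.9 were used.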

Additional observations from a re-analysis of the deposited data

How the results depend on the processing

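Sema3c was 2-fold or more higher in all 9 alternatives, with pseudocounts of 0.1 and 5, no floor and a floor of 5 FPKM, upper-quartile and median-of-ratios scaling, aligned bases, the leading transcript and protein-coding transcripts. At a pseudocount of 0.1 the count of guidance genes 2-fold higher was 2, with Sema6b, and with the leading transcript 1, Ephb2, was 2-fold lower. The same pseudocount gave 400 genes higher and 360 lower over the whole table, and the leading transcript gave 369 and 358. Of 26 guidance genes tried, 4 had another sign under an alternative, all with the leading transcript. They were Sema3b (0.30), Sema4b (0.04), Sema4c (-0.01) and Sema6d (-0.08). Fyn left the 2-fold bound, so that 0 genes of the semaphorin list were lower, at a pseudocount of 5, under both scalings and with the leading transcript. With the leading transcript, the median of the netrin and RGM partners was 0.29, and 1 gene each of the Eph and Slit transducer lists was 2-fold higher. At a pseudocount of 0.1, 1 netrin partner was 2-fold higher. The causes were not tested. No paired analysis was possible because each group has 1 library. Depth limits members that rest on few fragments, such as Sema3f with 45 under Musclin and 73 under vehicle.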
